A study of Mus musculus with 4 samples.

Results

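The clustered protocadherin locus of mouse chromosome 18 was taken as all CCGG positions from chr18:37080000-38010000 of genome build mm9. It held 796 of the 1594137 CCGG positions in the data. These fell into the alpha cluster (chr18:37080000-37360000, 206 sites), the beta cluster (chr18:37400000-37710000, 203 sites) and the gamma cluster (chr18:37820000-38010000, 268 sites), with another 119 sites in the stretches between them. The intervals and not the methylation values chose these sites. Clustered protocadherins are cell-surface adhesion proteins of the cadherin superfamily, best known in neurons, where each cell expresses its own combination of them. Each alpha and gamma gene has a variable first exon with its own promoter, spliced to constant exons shared by its cluster, whereas beta genes have no shared constant exons. Promoter methylation and the binding of CTCF are known to go with the choice of promoter in neurons. In the RefSeq gene table, which is on build GRCm38 and was used for names and order only, the alpha cluster runs through 14 genes from Pcdha1 to Pcdhac2. The beta cluster runs through 22 genes from Pcdhb1 to Pcdhb22. The gamma cluster runs through 22 genes from Pcdhga1 to Pcdhgc5, of which 1 is a pseudogene. Slc25a2, which encodes a mitochondrial carrier, Taf7, which encodes a subunit of the transcription factor TFIID, and Gm8242 lie between Pcdhb22 and Pcdhga1.

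The cells were MC1-ZE7, a mouse embryonic stem cell line (strain MC1, 129S6/SvEvTac, passage 31) that carries Emerald, a green fluorescent protein, under the promoter of Zscan4c, a gene of the 2-cell-embryo programme that only some embryonic stem cells express at a time. They were grown without feeder cells in medium with serum and leukemia inhibitory factor and were separated by cell sorting into an Emerald-high and an Emerald-negative fraction. Both fractions therefore carry the same reporter and come from the same line. DNA of each fraction was cut with HpaII, which cuts CCGG only where the central CG is unmethylated, and separately with MspI, which cuts methylated and unmethylated CCGG alike. The tag next to each cut was counted (HELP tagging). There was 1 library for each fraction and enzyme, 4 in all, so no value below measures the spread between cultures or sorts. Intervals are 95% Poisson intervals and cover counting error only. The protocol mentions no molecular identifiers, so tags may include copies of 1 molecule.

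The libraries held 5662614 tags (Emerald-high, HpaII), 9372711 tags (Emerald-high, MspI), 9535691 tags (Emerald-negative, HpaII) and 9307616 tags (Emerald-negative, MspI). Tags were scaled to these totals, and the level of a region is the log2 ratio of its summed HpaII tags to its summed MspI tags. A high level means much HpaII cutting, that is, little methylation, relative to the average of that library. A shift shared by all sites of a library is removed by this scaling. Of the locus sites, 189 (23.7%) had no tag in any library, against 24.2% of sites in the rest of the genome.

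The locus took a larger share of HpaII tags than of MspI tags. It held 6554 HpaII tags (0.116% of the library) and 4983 MspI tags (0.0532%) in Emerald-high cells, and 11913 HpaII tags (0.125%) and 4964 MspI tags (0.0533%) in Emerald-negative cells. The level of the locus was 1.12 (1.07 to 1.18) in the Emerald-high and 1.23 (1.18 to 1.28) in the Emerald-negative fraction. The 10 sites with the most tags held between 7.64% and 9.85% of the locus tags in each library. These shares do not cover sites that share tags with each other. Such sites, 105 in the locus, hold fractions of a tag or tags equal to those of another site. Their part in these sums is not given here. Without them the locus stood less far above the rest of the genome at sites with few CCGG around them, as given below.

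HpaII cutting in the genome varied with how densely CCGG is packed, so sites were compared within classes of density, given by the number of CCGG within 500 bp of a site, the site itself included. Locus sites with few CCGG around them were cut by HpaII much more than such sites elsewhere. At the 195 isolated sites of the locus (1 CCGG) the level was 0.97 in the Emerald-high and 0.77 in the Emerald-negative fraction. Isolated sites in the rest of the genome had -0.48 in the Emerald-high and -0.97 in the Emerald-negative fraction. The gap, locus minus rest, was 1.45 (1.33 to 1.57) in the Emerald-high and 1.73 (1.62 to 1.84) in the Emerald-negative fraction. The ratio was thus 2.73-fold higher in the locus for Emerald-high cells and 3.32-fold higher for Emerald-negative cells. The 430 locus sites with 2 to 4 CCGG had levels of 1.06 in the Emerald-high and 1.17 in the Emerald-negative fraction. The gap to such sites in the rest of the genome (-0.33 in Emerald-high cells, -0.42 in Emerald-negative cells) was 1.39 (1.32 to 1.46) in the Emerald-high and 1.59 (1.53 to 1.65) in the Emerald-negative fraction.

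Densely packed sites of the locus had small gaps to dense sites elsewhere, and these depended on how density was counted. The 140 locus sites with 5 to 9 CCGG had a gap of 0.12 (0.01 to 0.24) to the rest of the genome in the Emerald-high and 0.06 (-0.05 to 0.17) in the Emerald-negative fraction. At the 31 sites with 10 or more CCGG the gap was 0.28 (-0.22 to 0.78) in the Emerald-high and -0.17 (-0.63 to 0.29) in the Emerald-negative fraction, and these sites held only 111 HpaII and 45 MspI tags in the Emerald-high and 227 HpaII and 45 MspI tags in the Emerald-negative fraction. With CCGG counted within 250 bp the gap at 5 to 9 CCGG was -0.23 (Emerald-high) and -0.48 (Emerald-negative), and within 1000 bp it was 0.70 (0.61 to 0.79) in the Emerald-high and 0.72 (0.63 to 0.80) in the Emerald-negative fraction. With sites that hold fractions or equal tags left out it was -0.10 (Emerald-high) and -0.21 (Emerald-negative). The climb of the level with density, steep in the genome, was thus shallow in the locus: from 1 CCGG to 10 or more, the locus ran between 0.97 and 2.03 in the Emerald-high and between 0.77 and 2.30 in the Emerald-negative fraction, while the rest of the genome ran between -0.48 and 1.75 in the Emerald-high and between -0.97 and 2.47 in the Emerald-negative fraction. The upper end in the locus rests on few sites, since each library had tags at only 25.8% of the 31. Of the 31, 23 lie between the clusters. For the 19 autosomes taken whole, isolated sites had levels between -1.43 and -0.24 in the Emerald-high fraction, all below the locus. In the Emerald-negative fraction they ran between -1.91 and -0.72, also below it. Each autosome averages far more sites than the locus, so these ranges are no scale for a stretch of its size. Isolated sites of the 1000 kb on either side of the locus also lay above them. The stretch before had 0.12 (Emerald-high) and -0.26 (Emerald-negative), and that after had 0.13 (Emerald-high) and -0.21 (Emerald-negative).

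**Figure D1:**
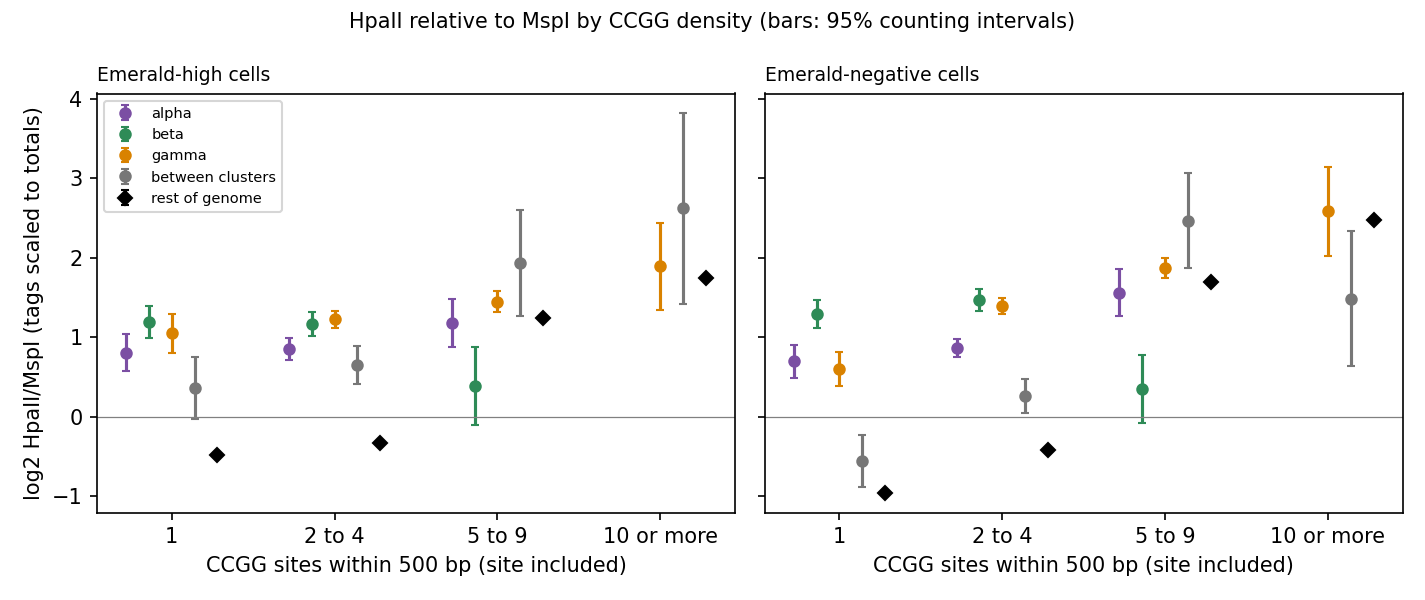
Level (log2 HpaII/MspI of summed scaled tags, vertical axis) by number of CCGG within 500 bp (horizontal axis) for the alpha, beta and gamma clusters, the stretches between them and the rest of the genome, in Emerald-high cells (left) and Emerald-negative cells (right); bars are 95% counting intervals. The clusters lie above the rest of the genome at 1 and at 2 to 4 CCGG. At 5 to 9 CCGG the beta cluster lies below it by more than counting error and the alpha cluster by less.

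All 3 clusters had the high level at sparse sites, but their order depended on sites that share tags. Over sites with 1 to 4 CCGG, the alpha cluster (164 sites) had a level of 0.84 (0.72 to 0.96) in the Emerald-high and 0.82 (0.72 to 0.92) in the Emerald-negative fraction. The beta cluster (184 sites) had 1.18 (1.06 to 1.30) in the Emerald-high and 1.40 (1.29 to 1.51) in the Emerald-negative fraction. The gamma cluster (187 sites) had 1.19 (1.09 to 1.29) in the Emerald-high and 1.26 (1.17 to 1.35) in the Emerald-negative fraction. Sites of this class in the rest of the genome had -0.39 in the Emerald-high and -0.64 in the Emerald-negative fraction. Alpha was below beta by more than counting error (alpha minus beta, -0.34 in the Emerald-high and -0.58 in the Emerald-negative fraction) and below gamma likewise (-0.35 in Emerald-high cells, -0.44 in Emerald-negative cells). At isolated sites alone, gamma (39 sites) had 1.05 in Emerald-high cells but 0.60 in Emerald-negative cells, near the 0.80 in the Emerald-high and 0.69 in the Emerald-negative fraction of alpha (56 sites). Beta (70 sites) had 1.19 in the Emerald-high and 1.29 in the Emerald-negative fraction there, but 0.76 (Emerald-high) and 0.33 (Emerald-negative) at the 60 that hold neither fractions nor tags equal to those of another site. Over 1 to 4 CCGG, beta and gamma differed by -0.02 (-0.17 to 0.14) in the Emerald-high fraction. In the Emerald-negative fraction they differed by 0.14, barely more than counting error. Without sites that hold fractions of a tag or tags equal to those of another site, beta (155 sites) had 0.81 (0.66 to 0.97) in the Emerald-high and 0.71 (0.57 to 0.86) in the Emerald-negative fraction, below alpha (142 sites) with 0.99 (0.85 to 1.12) in the Emerald-high and 0.98 (0.86 to 1.10) in the Emerald-negative fraction. Gamma (168 sites) then had 1.14 (1.04 to 1.25) in the Emerald-high and 1.14 (1.04 to 1.23) in the Emerald-negative fraction. The rest of the genome without fractions had -0.27 (Emerald-high) and -0.53 (Emerald-negative), so each cluster remained above it.

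The clusters were built differently at dense sites. Gamma had 73 sites with 5 to 9 CCGG and 8 with 10 or more. Alpha had 42 sites with 5 to 9 CCGG and beta had 19, and neither had a site with 10 or more. The dense sites of gamma (5 to 9 CCGG) had levels of 1.44 (1.31 to 1.58) in the Emerald-high and 1.86 (1.74 to 1.99) in the Emerald-negative fraction. Those of alpha had 1.18 (0.87 to 1.48) in the Emerald-high and 1.56 (1.26 to 1.86) in the Emerald-negative fraction. Their gap to the rest was -0.06 (-0.37 to 0.24) in the Emerald-high and -0.14 (-0.44 to 0.16) in the Emerald-negative fraction. Without sites that hold fractions or equal tags, gamma (50 sites) had 1.22 (Emerald-high) and 1.59 (Emerald-negative). Alpha (41 sites) then had 1.17 (Emerald-high) and 1.56 (Emerald-negative), against 1.28 (Emerald-high) and 1.74 (Emerald-negative) in the rest. Beta was the lowest: its 19 dense sites had 0.39 (-0.10 to 0.87) in the Emerald-high and 0.34 (-0.09 to 0.77) in the Emerald-negative fraction. That is below dense sites in the rest of the genome, by a gap of -0.85 (-1.34 to -0.37) in the Emerald-high and -1.35 (-1.78 to -0.93) in the Emerald-negative fraction, and below the sparse sites of beta itself. The beta value rests on 60 HpaII and 76 MspI tags in the Emerald-high and 100 HpaII and 77 MspI tags in the Emerald-negative fraction. MspI tags were seen at only 52.6% (Emerald-high) and 47.4% (Emerald-negative) of the 19 sites. HpaII tags were seen at 42.1% (Emerald-high) and 47.4% (Emerald-negative) of them. The value thus describes the sites with tags and not all dense sites of beta.

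The stretches between the clusters, with 90 sites of 1 to 4 CCGG, were lower than the clusters with all sites. Their level was 0.57 (0.37 to 0.77) in the Emerald-high and 0.01 (-0.17 to 0.19) in the Emerald-negative fraction. Leaving out sites that hold fractions or equal tags gave 0.77 (0.55 to 0.99) in Emerald-high cells, where the interval overlaps those of alpha and beta, and 0.12 (-0.07 to 0.31) in Emerald-negative cells. With all sites, the clusters combined exceeded them by 0.51 (0.30 to 0.72) in the Emerald-high and by 1.16 (0.97 to 1.35) in the Emerald-negative fraction. Beyond the locus, sites with 1 to 4 CCGG had 0.21 in the Emerald-high and 0.16 in the Emerald-negative fraction in the 1000 kb before it, and 0.23 in the Emerald-high and 0.18 in the Emerald-negative fraction in the 1000 kb after it. The locus exceeded the stretch before it by 0.83 in the Emerald-high and 0.91 in the Emerald-negative fraction, and the stretch after it by 0.81 in the Emerald-high and 0.89 in the Emerald-negative fraction. The flanks were thus themselves above the rest of the genome, and the locus was above its flanks.

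**Figure D2:**
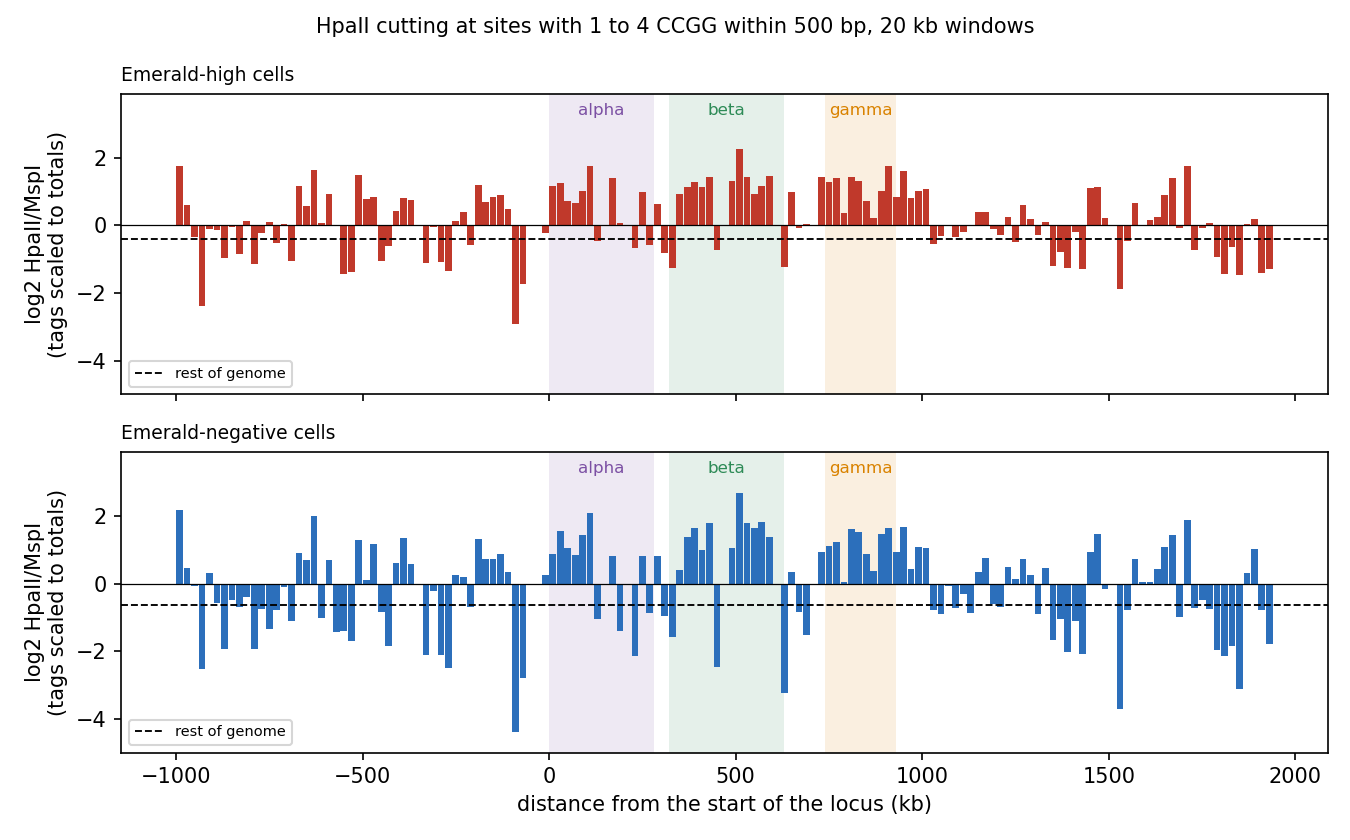
Level (log2 HpaII/MspI) of sites with 1 to 4 CCGG in 20 kb windows (vertical axis) against distance from the start of the locus in kb (horizontal axis), in Emerald-high cells (top) and Emerald-negative cells (bottom); shaded bands mark the alpha, beta and gamma clusters and the dashed line the level of sites with 1 to 4 CCGG in the rest of the genome (-0.39 in Emerald-high cells, -0.64 in Emerald-negative cells). Most windows inside the bands are positive in both fractions, with dips within alpha and beta, at the edges of beta and between beta and gamma.

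Over the locus as a whole, sparse sites were high at every distance from a CCGG cluster. Such a cluster is a run of at least 5 CCGG with neighbours at most 500 bp apart. The 75 locus sites outside such clusters and under 2 kb from one had 1.53 in the Emerald-high and 1.47 in the Emerald-negative fraction, against 0.26 (Emerald-high) and 0.20 (Emerald-negative) for the rest of the genome. The 72 of them inside the protocadherin clusters had 1.41 (Emerald-high) and 1.42 (Emerald-negative). The 154 locus sites 2 to 10 kb away had 0.85 (Emerald-high) and 0.91 (Emerald-negative), against -0.22 (Emerald-high) and -0.46 (Emerald-negative) for the rest. The 18 of them between the protocadherin clusters had 0.18 (Emerald-high) and -0.92 (Emerald-negative), the latter below the rest. The 309 locus sites over 10 kb away had 0.91 (0.82 to 1.00) in the Emerald-high and 0.84 (0.76 to 0.92) in the Emerald-negative fraction, against -0.66 in the Emerald-high and -1.04 in the Emerald-negative fraction for the rest. The 69 of them between the protocadherin clusters had 0.24 (Emerald-high) and -0.09 (Emerald-negative), above the rest in both. At that distance MspI tags were seen at 66.7% of locus sites in the Emerald-high and 67.0% in the Emerald-negative fraction, against 71.2% (Emerald-high) and 71.6% (Emerald-negative) in the rest of the genome. HpaII tags were seen at 62.1% of these locus sites in the Emerald-high and 61.2% in the Emerald-negative fraction, against 53.0% (Emerald-high) and 49.3% (Emerald-negative) in the rest.

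Along the locus the level was patchy. Sites with 1 to 4 CCGG were summed in 100 kb windows, of which 25506 in the genome had enough MspI tags and 11 overlapped the locus, with 1 tag added to each sum. The first of the 11, from chr18:37000001, lies mostly before the locus, and the last, from chr18:38000001, mostly after it. The first had 0.26 in the Emerald-high and 0.32 in the Emerald-negative fraction. The last had 1.08 (Emerald-high) and 1.05 (Emerald-negative). In Emerald-high cells all 11 windows were above the genome's upper quartile of -0.01. In Emerald-negative cells 9 of the 11 were above the upper quartile of -0.28 and 10 were above the median of -0.86. The highest window began at chr18:37500001 in the beta cluster in Emerald-high cells (1.45, with 0.08% of all windows above it) and had 1.51 in Emerald-negative cells. The window from chr18:37600001, also in beta, had 1.21 in the Emerald-high and 1.64, the highest value there, in the Emerald-negative fraction. Both beta windows held sites that share tags. The window from chr18:37600001 held 5 sites of the largest set of equal tags, and without them it had 0.98 in the Emerald-high and 1.20 in the Emerald-negative fraction. Leaving out all sites with fractions or equal tags, the window from chr18:37500001 had 0.96 in the Emerald-high and 0.60 in the Emerald-negative fraction, and that from chr18:37600001 had 0.69 (Emerald-high) and 0.74 (Emerald-negative). The lowest window began at chr18:37700001, between beta and gamma, with 0.11 in the Emerald-high and -0.94 in the Emerald-negative fraction. Just before the locus, the 50 kb from chr18:37000001 held only 7 HpaII against 76 MspI tags in Emerald-high cells, and 7 HpaII against 65 MspI tags in Emerald-negative cells. The level there was -2.54 in the Emerald-high and -3.08 in the Emerald-negative fraction.

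Single sites covered the whole range. The site score used with HELP tagging is 100 × (2/π) × arctan(HpaII/MspI), which runs from 0 without any HpaII tag through 50 at equal scaled tags. The score follows the scaling, so only its comparison with other sites of the same library is used here. Sites needed 10 MspI tags or more in both fractions to be scored, namely 147 of the 796 locus sites (18.5%) and 218697 sites in all (13.7%). The median score in the locus was 60.1 in the Emerald-high and 59.2 in the Emerald-negative fraction, against 26.8 (Emerald-high) and 14.4 (Emerald-negative) in the rest of the genome. Scores under 20 were held by 21 locus sites (14.3%, exact binomial interval 9.07% to 21.0%) in the Emerald-high and by 32 (21.8%, 15.4% to 29.3%) in the Emerald-negative fraction, against 39.6% (Emerald-high) and 57.7% (Emerald-negative) of sites in the rest. Scores over 80 were held by 37 locus sites (25.2%, 18.4% to 33.0%) in the Emerald-high and by 36 (24.5%, 17.8% to 32.3%) in the Emerald-negative fraction, against 6.07% (Emerald-high) and 7.61% (Emerald-negative) in the rest. Relative to the rest of the genome in the same library, a smaller share of locus sites scored under 20 and a larger share over 80. Scaled to dense sites no locus site scored over 80, and 40.1% (Emerald-high) and 59.9% (Emerald-negative) scored under 20. That scaling lowers the scores of the rest of the genome too, and its shares were not taken under it. These values can thus not be set against the genome shares above. By cluster, the median was 55.5 in the Emerald-high and 56.4 in the Emerald-negative fraction for the 38 alpha sites. It was 61.8 in the Emerald-high and 59.7 in the Emerald-negative fraction for the 32 beta sites, and 69.4 in the Emerald-high and 67.0 in the Emerald-negative fraction for the 62 gamma sites. The 15 sites between the clusters had medians of 49.4 in the Emerald-high and 27.2 in the Emerald-negative fraction.

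**Figure D3:**
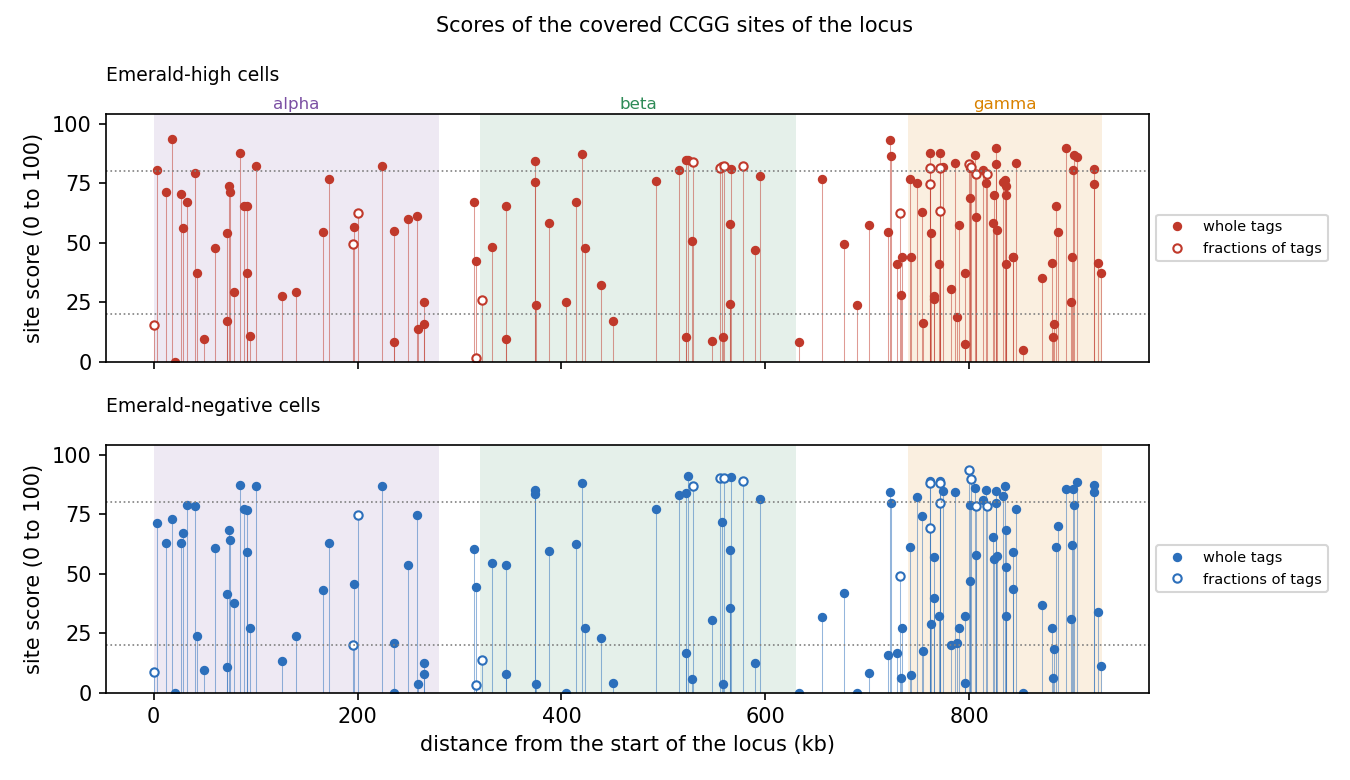
Score of each of the 147 covered CCGG sites of the locus (vertical axis, 0 to 100) against distance from the start of the locus in kb (horizontal axis), in Emerald-high cells (top) and Emerald-negative cells (bottom); open circles are sites that hold fractions of a tag, dotted lines mark scores of 20 and 80, and shaded bands mark the clusters. Sites with scores over 80 and under 20 stand close together in beta and gamma, and few alpha sites exceed 80 (5 in the Emerald-high and 3 in the Emerald-negative fraction).

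Some neighbouring sites differed widely. Of the 42 pairs of adjacent scored sites within 1 kb, 7 differed by more than 40 in both fractions, and the median difference was 17.0 in the Emerald-high and 20.7 in the Emerald-negative fraction. In beta, chr18:37638770 scored 10.4 in the Emerald-high and 3.65 in the Emerald-negative fraction, while chr18:37639391, 621 bp on, scored 82.2 (Emerald-high) and 90.0 (Emerald-negative). The first of these had 2 HpaII and 20 MspI tags in the Emerald-high and 1 HpaII and 17 MspI tags in the Emerald-negative fraction. The second had 40 HpaII and 19 MspI tags in the Emerald-high and 102 HpaII and 15.7 MspI tags in the Emerald-negative fraction. All tags of the second are equal to those of other sites of the locus, in the largest set of equal tags described below and in a set of 3 beta sites, so its score cannot be assigned to it alone. Also in beta, chr18:37602033 scored 84.8 in the Emerald-high and 83.8 in the Emerald-negative fraction, and chr18:37602540, 507 bp on, scored 10.4 (Emerald-high) and 16.6 (Emerald-negative). Neither site of this second pair belongs to a set of equal tags. Both pairs were chosen for their difference in both fractions.

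CCGG clusters, defined by CCGG spacing alone and not as CpG islands, scored near the genome's median in the locus, with few low scores. There were 30 in the locus (41006 in the genome), of which 25 had 20 MspI tags or more in both fractions (26695 in the genome). Their median score was 77.6 in the Emerald-high and 80.8 in the Emerald-negative fraction, against 73.9 (Emerald-high) and 79.3 (Emerald-negative) over the whole genome. None of the 25 scored under 20 in the Emerald-high and 1 did in the Emerald-negative fraction, against 15.1% (Emerald-high) and 21.3% (Emerald-negative) in the genome. Scores over 80 were reached by 7 of the 25 (28%) in the Emerald-high and by 13 (52%) in the Emerald-negative fraction, against 36.1% (Emerald-high) and 49.3% (Emerald-negative) in the genome. Scaled to dense sites 0 of the 25 were over 80 in either fraction, and 2 (Emerald-high) and 4 (Emerald-negative) were under 20. Genome shares of CCGG cluster scores were not taken under that scaling, which lowers all scores. No tag was seen in any library at 3 of the 30, in alpha at chr18:37145409-37146060 and chr18:37197563-37197916 and in beta at chr18:37526198-37526738. With no mm9 annotation used here, these clusters were not assigned to promoters or exons of single genes.

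All 16 CCGG clusters of gamma were scored, with scores between 59.8 and 81.5 in the Emerald-high and between 67.5 and 86.0 in the Emerald-negative fraction. Of the 16, 11 held sites with fractions or equal tags, and sites of a set are not independent measurements. Without such sites 15 were scored, between 49.5 and 84.5 in the Emerald-high and between 42.4 and 86.0 in the Emerald-negative fraction. The highest with all sites was chr18:37890731-37892637 in Emerald-high cells, with 81.5 there and 85.3 in Emerald-negative cells, and 6 of its 10 sites hold fractions or equal tags. The cluster at chr18:37854086-37855240 had 80.6 in the Emerald-high and the highest gamma score, 86.0, in the Emerald-negative fraction. The lowest in Emerald-high cells was chr18:37922620-37923377, with 59.8 there and 71.0 in Emerald-negative cells. The one with the most CCGG, chr18:37965933-37968221 with 19, had 78.1 in the Emerald-high and 85.9 in the Emerald-negative fraction. It held 214 HpaII and 127 MspI tags in the Emerald-high and 445 HpaII and 98 MspI tags in the Emerald-negative fraction.

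Alpha had 7 CCGG clusters, of which 5 were scored, between 37.7 and 83.4 in the Emerald-high and between 17.1 and 87.6 in the Emerald-negative fraction. The cluster at chr18:37249547-37250568 had 83.4 in the Emerald-high and 87.6 in the Emerald-negative fraction. The one at chr18:37303458-37304850, with 15 CCGG the most in alpha, had 77.6 in the Emerald-high and 86.5 in the Emerald-negative fraction. The one at chr18:37344627-37344755, near the far end of alpha, had the lowest scores among the 25, 37.7 in the Emerald-high and 17.1 in the Emerald-negative fraction, from 13 HpaII and 32 MspI tags in the Emerald-high and 11 HpaII and 39 MspI tags in the Emerald-negative fraction. The difference of its log2 ratios, 1.29 (-0.05 to 2.63), has an interval that includes 0. Beta had 5 CCGG clusters and 3 scored ones, none over 80. The one with the most CCGG, chr18:37703254-37704045 with 9, had too few tags to be scored, with 7 MspI tags in each fraction. Its level was 1.09 (-0.34 to 2.51) in the Emerald-high and 1.62 (0.39 to 2.84) in the Emerald-negative fraction. The cluster at chr18:37645204-37645894 had 42.6 in the Emerald-high and 42.9 in the Emerald-negative fraction, chr18:37454446-37455717 had 66.5 (Emerald-high) and 71.4 (Emerald-negative), and chr18:37602033-37602940 had 72.8 (Emerald-high) and 68.9 (Emerald-negative). The last includes the neighbouring pair described above, so its score averages sites of opposite kinds.

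**Figure D4:**
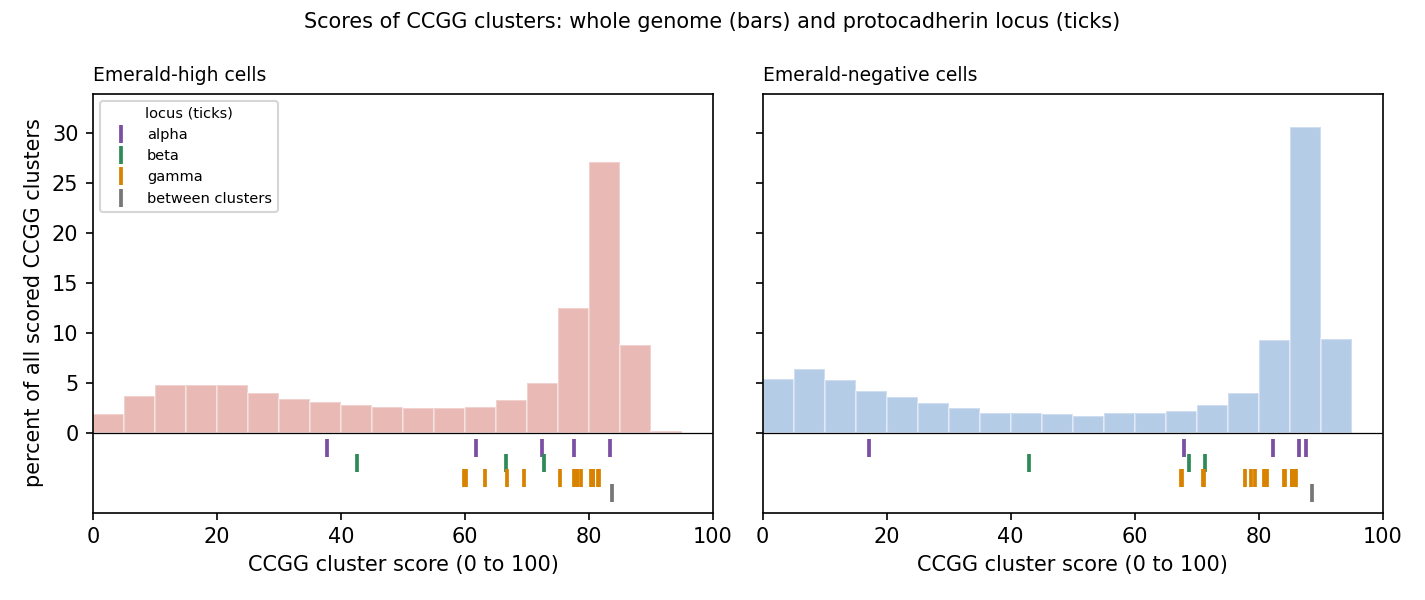
Scores of CCGG clusters (horizontal axis, 0 to 100) as percent of all scored CCGG clusters of the genome (bars, vertical axis) in Emerald-high cells (left) and Emerald-negative cells (right), with a tick under the axis for each of the 25 scored CCGG clusters of the locus. The gamma ticks gather from 59.8 to 81.5 in the Emerald-high and from 67.5 to 86.0 in the Emerald-negative fraction, while alpha and beta each have a cluster below 50.

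Differences between the cell fractions were small in the locus. The difference of levels, Emerald-high minus Emerald-negative, was -0.11 (-0.18 to -0.03) over all locus sites, with a near-zero difference between the MspI libraries. It was 0.61 when the libraries were scaled to the dense sites of the genome instead. By class, scaled to totals, it was 0.20 (0.04 to 0.36) at isolated sites, -0.11 (-0.20 to -0.01) at 2 to 4 CCGG, -0.40 (-0.55 to -0.24) at 5 to 9 and -0.27 (-0.95 to 0.41) at 10 or more. The rest of the genome had 0.48, 0.09, -0.46 and -0.72 in the same classes. The locus difference minus that of the rest was -0.28 (-0.44 to -0.12) at isolated sites and -0.20 (-0.29 to -0.10) at 2 to 4 CCGG, and the intervals at the denser classes included 0. This contrast was not taken for the whole locus without sites that hold fractions or equal tags. Without them, isolated sites had differences of 0.20 in alpha, 0.43 in beta, 0.45 in gamma and 0.84 between the clusters. The rest without fractions had 0.51, within the counting interval of each. Over 1 to 4 CCGG the differences were 0.0090 in alpha, 0.10 in beta, 0.0028 in gamma and 0.65 between, against 0.26 in the rest. The MspI libraries, blind to methylation, differed too, by -0.17 at isolated sites and by 0.23 at 5 to 9 CCGG of the locus. The HpaII libraries alone gave 0.0327 (-0.07 to 0.14) at isolated sites. Over sites with at least 10 MspI tags the value was 0.0553 over the locus and 0.0920 at 2 to 4 CCGG, and the first part of the tags gave 0.0159 over the locus and 0.0536 at 2 to 4 CCGG, all of the other direction. Leaving out sites that hold fractions of a tag gave -0.0224 over the locus.

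**Figure D5:**
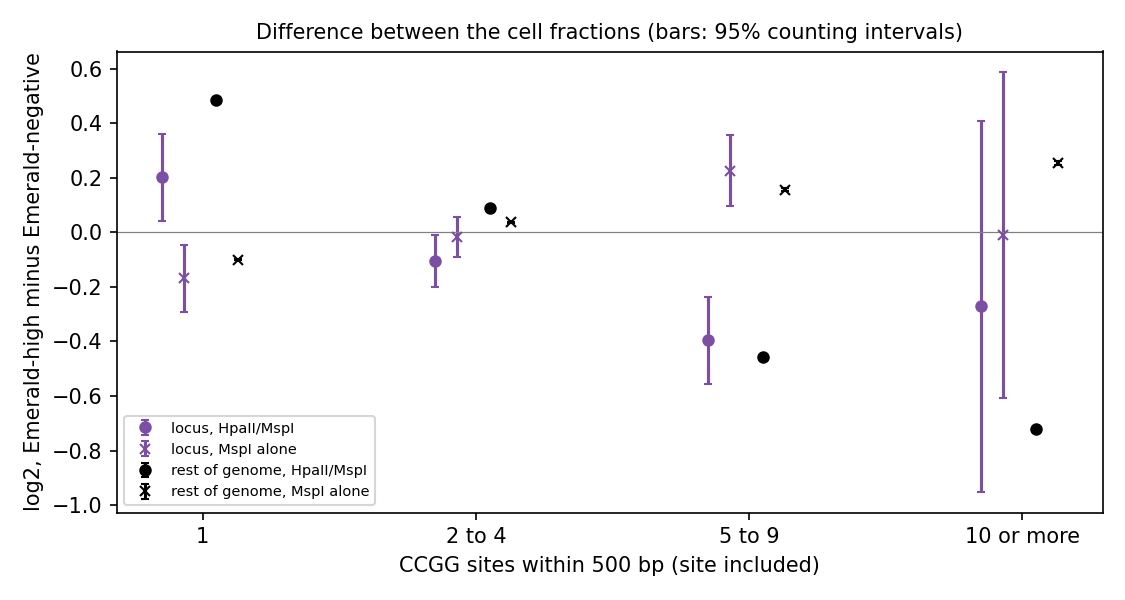
Difference between Emerald-high and Emerald-negative cells on the log2 scale (vertical axis) by number of CCGG within 500 bp (horizontal axis), for the locus and the rest of the genome; circles are the HpaII/MspI ratio, crosses the MspI libraries alone, bars 95% counting intervals. The locus lies below the rest of the genome at 1 CCGG (0.20 against 0.48) and at 2 to 4 CCGG (-0.11 against 0.09), with sites of fractions or equal tags included.

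Among the clusters, alpha had a difference of -0.02 (-0.16 to 0.12), beta of -0.21 (-0.37 to -0.06) and gamma of -0.20 (-0.31 to -0.10). Scaled to dense sites these were 0.70 in alpha, 0.51 in beta and 0.52 in gamma. Alpha had 0.31 (0.10 to 0.52) over sites with at least 10 MspI tags, 0.24 (0.03 to 0.46) by the first part of the tags and -0.21 (-0.41 to -0.02) by the second. Without sites that hold fractions of a tag beta had -0.0051. Scaled to totals, the stretches between them had a positive difference, 0.41 (0.16 to 0.66) over all 119 sites and 0.92 (0.41 to 1.42) at the 30 isolated sites, where the level was 0.36 in the Emerald-high and -0.56 in the Emerald-negative fraction. The MspI libraries differed by -0.25 over those 119 sites and by -0.58 at the 30 isolated ones. The HpaII libraries alone differed by 0.15 (-0.02 to 0.32) over the 119 sites and by 0.34 (-0.05 to 0.72) at the isolated ones. At sites with 1 to 4 CCGG, the difference of the clusters combined minus that of the stretches between them was -0.65 (-0.93 to -0.36). Of the 15 scored sites between the clusters, 13 scored higher in Emerald-high cells than in Emerald-negative cells, against 65.4% of scored sites in the rest of the genome. The locus as a whole had 82 of 147 sites (55.8%) higher.

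Few features of the locus passed a test of the difference. Each site, 100 kb bin and CCGG cluster was tested with a 2-sided Fisher's exact test of its HpaII and MspI tags in both fractions against the library totals, with Benjamini-Hochberg adjustment over all such features of the genome. A call needed an adjusted p under 0.05 and a difference of at least 2-fold. Such a test compares these libraries, not the conditions, and shared or amplified tags are not independent. In the genome 0.102% of sites were called higher and 0.0297% lower in Emerald-high cells. In the locus 1 of 147 sites was called higher and none lower. With the libraries scaled to dense sites 8 of 147 sites of the locus (5.44%) were called higher, against 4.15% of all sites, and none lower, against 0.00137%. By adjusted p alone the same count of 1 was higher (0.106% of all sites) and none lower (0.0576%). At an unadjusted p under 0.05 there were 11 higher (7.48%, against 7.77% of all sites) and 1 lower (0.680%, against 0.892%), so the locus was near the background. The median log2 difference per site, with 1 tag added, was 0.24 in the locus and 0.68 over all scored sites, not matched for CCGG density.

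The called site was chr18:37275983 in alpha, with 3 CCGG within 500 bp. It had 61.3 HpaII and 103 MspI tags in Emerald-high cells, and 60 HpaII and 180 MspI tags in Emerald-negative cells. Its score was 49.6 in the Emerald-high and 20.1 in the Emerald-negative fraction, a log2 difference of 1.59 (adjusted p = 0.0011, Fisher's exact test with Benjamini-Hochberg adjustment). The MspI libraries differed by -0.82 there, and it was the locus site with the most MspI tags and held fractions of a tag. The part of the MspI difference and of the divided tags in the call was not tested.

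No 100 kb bin that overlaps the locus was called, of 11 tested, where the genome had 6.55% of bins higher and 0.0196% lower. The first and the last of the 11 lie mostly outside the locus. By adjusted p alone, without the fold threshold, 2 bins were higher and 3 lower in Emerald-high cells, against 20.7% of bins higher and 5.49% lower in the genome. Scaled to dense sites, 2 of the 11 were called higher, against 48.2% of all bins. At an unadjusted p under 0.05, 2 of the 11 were higher (18.2%, against 30.2% of all bins) and 4 were lower (36.4%, against 8.09%). The bin from chr18:37700001, between beta and gamma, had a level of 0.39 in the Emerald-high and -0.47 in the Emerald-negative fraction, a difference of 0.86 (0.44 to 1.27), with -0.48 between the MspI libraries. The bin from chr18:37200001 in alpha, which holds the called site, had 0.60 in the Emerald-high and 0.03 in the Emerald-negative fraction, a difference of 0.57 (0.26 to 0.89), with -0.26 between the MspI libraries. Without that site the bin had 0.85 in the Emerald-high and 0.80 in the Emerald-negative fraction, a difference of 0.04 (-0.35 to 0.43). The lower bins began at chr18:37100001 in alpha (difference -0.31), chr18:37600001 in beta (-0.37) and chr18:37900001 in gamma (-0.21). In beta 5 sites of the bin belong to the largest set of equal tags, and without them its difference was -0.17 (-0.43 to 0.10), and without any site of fractions or equal tags it was 0.0049 (-0.30 to 0.31). The remaining 6 bins had differences between -0.15 and -0.01, and over the 11 bins the median was -0.07, against 0.26 over all bins. Bins were not matched for CCGG density, with which the difference varied in the genome. The part of density in these bin shares and medians was not tested.

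No CCGG cluster of the locus was called either, of 25 tested, where the genome had 1.33% higher and 4.97% lower. At an unadjusted p under 0.05 none of the 25 was higher (5.04% in the genome) and 3 were lower (12%, against 22.8% in the genome). Scores were lower in Emerald-high cells at 22 of the 25 and higher at 3 (64.7% lower in the genome), and the median log2 difference was -0.34, against -0.27 over all CCGG clusters. Some of the 25 share tags and are not independent. Without sites of fractions or equal tags, chr18:37850580-37851923 went from -0.28 to 0.70 and chr18:37890731-37892637 from -0.35 to 0.36. No site was left at chr18:37841424-37841917, and the other CCGG clusters that lost sites kept their direction. Scaled to dense sites 1 of the 25 was called higher (8.5% in the genome) and none lower (0.045%). By adjusted p alone none was higher (1.36% in the genome) and 1 was lower (11.1%), chr18:37965933-37968221 in gamma, with a log2 difference of -0.67 (-1.12 to -0.22) and 0.36 between the MspI libraries (adjusted p = 0.037, Fisher's exact test with Benjamini-Hochberg adjustment).

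Genes within a protocadherin cluster resemble each other in sequence, so that 1 tag can match several places. How such tags were counted is not stated in the sources used here. Fractions of a tag were held by 10.8% of locus sites, against 3.07% in the rest of the genome. Sites of the locus were also compared by 1 of the 2 deposited parts of their tags at a time. In 32 sets, sites had equal tags to within 0.05 tag in all 4 libraries, with at least 20 tags in sum. These sets held 71 sites (8.92%), of which 11 were in alpha, 23 in beta, 37 in gamma and none between the clusters. Sets with small sums may hold sites that match by coincidence. The largest set had 8 sites, 5 in beta and 3 in gamma from chr18:37603964 to chr18:37881953, each with 35 HpaII and 17 MspI tags in the Emerald-high and 88 HpaII and 13 MspI tags in the Emerald-negative fraction. All 4 counts were whole numbers in the part of the tags compared, so the sharing does not show as fractions there. Some sites of the set do hold fractions in their summed tags, while chr18:37603964 and chr18:37646558 do not. A set of 6 alpha sites from chr18:37090215 to chr18:37170785 had 12.3 HpaII and 13.2 MspI tags in the Emerald-high and 34.3 HpaII and 8.83 MspI tags in the Emerald-negative fraction. Sites of a set are not independent measurements. Together, 105 of the 796 locus sites held fractions or belonged to a set. They were left out, and sites with fractions were left out of the rest of the genome too. The gap to the rest at isolated sites was then 1.18 (1.05 to 1.32) in Emerald-high cells, against 1.45 with all sites. In Emerald-negative cells it was 1.26 (1.14 to 1.39), against 1.73 with all sites. Part of this fall came from the rest of the genome. Its level at isolated sites rose from -0.48 to -0.36 in the Emerald-high and from -0.97 to -0.86 in the Emerald-negative fraction. At 2 to 4 CCGG the gap was 1.26 (1.18 to 1.34) in the Emerald-high and 1.37 (1.30 to 1.44) in the Emerald-negative fraction.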

How the data were processed

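HELP tagging libraries of 2 sorted fractions of 1 embryonic stem cell line, each cut with HpaII and MspI, were used (1 library each). The deposited files give estimated counts of tags per CCGG position in 2 parts and their sum, which was used. They are not scaled to depth, per the file headers' totals. The sources used here do not say what the parts are, which aligner was used or how a tag matching several places was handled. The build, per the submitters' processing notes, is mm9. Tags were scaled to library totals (5662614 to 9535691) and summed by region and density class, with 95% Poisson intervals by the delta method. Fisher tests used counts rounded to whole tags and a null odds ratio set by the totals, over all sites with at least 10 MspI tags, and all bins and CCGG clusters with at least 20, in each MspI library. The test was checked on simulated data. The rule for naming covered all 3 clusters, all 100 kb bins, called sites, and the CCGG clusters with the highest and lowest scores and largest and smallest differences in each cluster. Some of these bins and CCGG clusters are given above only within ranges and counts. Neighbouring pairs, windows, sets of equal tags and the values without them were chosen after values were seen. The locus and all lists were chosen with earlier results of these data known. Python 3.11.15, numpy 2.4.6, pandas 2.3.3 and scipy 1.17.1 were used.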

Additional observations from a re-analysis of the deposited data

How the results depend on the processing

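The gaps between the locus and the rest of the genome at isolated sites and at 2 to 4 CCGG kept their direction with intervals above 0 in the 35 alternative values that could move them (rescaling a library shifts locus and rest alike). They lay between 1.18 and 1.76 (Emerald-high) and 1.26 and 2.11 (Emerald-negative) at isolated sites, and between 1.18 and 1.55 (Emerald-high) and 1.23 and 1.87 (Emerald-negative) at 2 to 4 CCGG. The gaps at 5 to 9 CCGG, near 0, did not hold. With density counted within 250 bp they were -0.23 in the Emerald-high and -0.48 in the Emerald-negative fraction. Within 1000 bp they were 0.70 (Emerald-high) and 0.72 (Emerald-negative), and -0.30 at 10 or more CCGG in Emerald-negative cells. The gap at 5 to 9 CCGG in Emerald-high cells had an interval that included 0 without sites that hold fractions of a tag (0.0101), with the first part of the tags (0.15) and with the second (0.11). In Emerald-negative cells it was 0.16 over sites with at least 10 MspI tags. Without sites that hold fractions or equal tags, an alternative chosen after seeing the data, it was -0.10 in the Emerald-high and -0.21 in the Emerald-negative fraction.

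Differences between the fractions depended on the processing. Scaled to the dense sites of the genome, a scaling that raises every difference by the same amount, they were 0.61 over the locus, 0.70 in alpha, 0.51 in beta, 0.52 in gamma, 0.62 at 2 to 4 CCGG and 0.32 at 5 to 9. Over sites with at least 10 MspI tags they were 0.0553 over the locus, 0.31 in alpha, -0.19 in beta, -0.11 in gamma, 0.18 at isolated sites, 0.0920 at 2 to 4 CCGG and -0.18 at 5 to 9. The first part of the tags gave 0.0159 over the locus, 0.24 in alpha, -0.0545 in beta, -0.15 in gamma and 0.0536 at 2 to 4 CCGG. The second gave -0.21 in alpha and 0.14 at isolated sites. Without sites that hold fractions the values were -0.0224 over the locus, -0.0051 in beta and -0.0387 at 2 to 4 CCGG. Without fractions or equal tags they were -0.0036 over the locus, 0.10 in beta, -0.11 in gamma and -0.0260 at 2 to 4 CCGG. HpaII libraries alone gave -0.12 in alpha and 0.0327 at isolated sites. Density within 250 bp gave 0.12 at isolated sites, and within 1000 bp -0.0234 at 2 to 4 CCGG and -0.40 at 10 or more. In the stretches between the clusters, alternatives chosen after seeing the data gave 0.33 by the first part of the tags and 0.15 by the HpaII libraries alone, both with intervals that include 0. The causes were not tested.

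Scores follow the scaling. The dense-site scaling lowers scores in the whole genome, and genome shares of scores were not taken under it. Scaled to dense sites, the median site score was 24.8 in the Emerald-high and 15.1 in the Emerald-negative fraction, and 0% of sites scored over 80 in either. Sites under 20 were 40.1% (Emerald-high) and 59.9% (Emerald-negative). CCGG clusters under 20 were 2 (Emerald-high) and 4 (Emerald-negative), and 0 were over 80, with 8 sites (5.44%, against 4.15% of all sites) and 2 bins (18.2%, against 48.2% of all bins) called higher. With a minimum of 20 MspI tags 17.4% of sites in each fraction scored over 80. With a minimum of 5 the medians were 67.8 in the Emerald-high and 71.5 in the Emerald-negative fraction, and 38.8% scored over 80 in Emerald-negative cells. CCGG clusters with at least 40 MspI tags gave 4 over 80 in the Emerald-high and 0 under 20 in the Emerald-negative fraction. Joining neighbours at most 250 bp apart left 13 scored, 4 over 80 in the Emerald-high and 7 in the Emerald-negative fraction. Requiring 10 CCGG left 9 scored, 2 over 80 in the Emerald-high and 7 over 80 and 0 under 20 in the Emerald-negative fraction. By adjusted p alone 2 bins were higher (20.7% of all bins) and 3 lower (5.49% of all bins). Thinning the Emerald-negative HpaII library gave 2 sites called higher, and bins of 10 kb gave 1 higher. The share over the genome was not taken for the thinned library or the bins of 10 kb. Their counts can therefore not be set against a background. No paired analysis was possible because each fraction and enzyme had 1 library. With 1 library each, no alternative leaves out a replicate, and counting intervals miss the error between cultures, sorts and library preparations.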
